A study of Mus musculus with 22 samples.

Results

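Expression of the enzymes and cofactors that write, copy, read out or erase DNA methylation, and of the Polycomb and chromatin remodelling proteins that work with them, was followed through CAR agonist-driven liver tumour formation in mice. The 10 genes, chosen by name with earlier results of these data known, were Dnmt1, Dnmt3a, Dnmt3b, Uhrf1, Tet1, Tet2, Tet3, Ezh2, Hells and Suz12. Among the 45281 probes of the bead array, 19 carried one of these symbols and they covered 9 of the 10 genes. No probe carried the symbol Tet2, so Tet2 was not analysed here.

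The 22 samples came from liver of female C3H mice, and RNA was taken from microdissected tissue. All mice given TCPOBOP, which activates the constitutive androstane receptor (CAR), received 3 mg/kg by stomach tube once a week. The groups were 3 vehicle controls (DMSO in corn oil, no DENA and no TCPOBOP), 3 samples after 28 weeks of TCPOBOP alone, 7 samples after 42 weeks of TCPOBOP alone, and 9 samples after a single injection of DENA (diethylnitrosamine, a DNA-damaging carcinogen, 90 mg/kg), a recovery week and 28 weeks of TCPOBOP. The control titles hold only an abbreviation, which was read as the vehicle group. The labels used here give no age in weeks for the controls, do not say which samples were tumour, and do not say whether any 2 arrays shared a mouse, so the p-values may measure only the spread between these samples. In bulk tissue, fewer cells of a type and less RNA per cell cannot be told apart.

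DNA methylation is laid down on new sites mainly by DNMT3A and DNMT3B and is copied after each round of replication by DNMT1, which UHRF1 brings to the half-methylated daughter DNA. TET enzymes oxidise methylcytosine, the first step of its removal, and HELLS is a remodelling ATPase that opens nucleosomal DNA to the methyltransferases. EZH2 and SUZ12 are the catalytic and a structural subunit of Polycomb repressive complex 2, which methylates lysine 27 of histone H3. UHRF1, DNMT1, HELLS and EZH2 are textbook genes of cycling cells, and most hepatocytes of an adult liver do not cycle.

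Promoter sequences of the genes the results turn on are shown because the cell cycle recurs in the results below. The 300 bases run from 250 before to 50 after the start site (RefSeq, GRCm38.p6), 5′ to 3′ on the gene's strand. Capitals mark 2 kinds of letters found by search on both strands: E2F type (TTTCCCGC, TTTGGCGC, TTTCGCGC or TTTGCCGC) and NF-Y type (CCAAT, read as ATTGG on the other strand). The promoters are the second of 2 listed for Uhrf1 (chr17:56304063-56304362, + strand), the single one for Dnmt3b (chr2:153649199-153649498, + strand) and the third of 3 for Dnmt1 (chr9:20952574-20952873, - strand).
Uhrf1: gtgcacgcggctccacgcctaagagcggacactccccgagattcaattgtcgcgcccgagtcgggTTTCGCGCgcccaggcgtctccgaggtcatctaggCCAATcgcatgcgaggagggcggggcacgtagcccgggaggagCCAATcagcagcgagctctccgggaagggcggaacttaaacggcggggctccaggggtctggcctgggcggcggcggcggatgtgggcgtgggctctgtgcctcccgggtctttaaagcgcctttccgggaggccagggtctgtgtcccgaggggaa
Dnmt3b: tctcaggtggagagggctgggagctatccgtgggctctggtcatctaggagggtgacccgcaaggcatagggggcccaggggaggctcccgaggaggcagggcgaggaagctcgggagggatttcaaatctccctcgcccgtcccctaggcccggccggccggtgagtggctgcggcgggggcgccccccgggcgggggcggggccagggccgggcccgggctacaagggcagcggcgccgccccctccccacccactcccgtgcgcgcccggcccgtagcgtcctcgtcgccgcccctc
Dnmt1: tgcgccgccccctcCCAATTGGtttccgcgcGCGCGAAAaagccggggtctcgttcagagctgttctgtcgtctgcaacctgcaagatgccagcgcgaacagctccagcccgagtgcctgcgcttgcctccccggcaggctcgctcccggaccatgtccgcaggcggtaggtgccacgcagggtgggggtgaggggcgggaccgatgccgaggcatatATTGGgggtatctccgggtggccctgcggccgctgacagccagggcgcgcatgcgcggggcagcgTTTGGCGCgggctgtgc
The Uhrf1 promoter held 1 E2F type match, 185 bases before the start site, and 2 NF-Y type matches. The Dnmt1 promoter held 2 E2F type and 3 NF-Y type matches, of which a CCAAT and an ATTGG overlap. The Dnmt3b promoter held neither. The first listed Uhrf1 promoter held 3 NF-Y type and 0 E2F type matches, and the first 2 of Dnmt1 held 0 E2F type matches. The promoters shown for Uhrf1 and Dnmt1 are thus the only listed ones of these genes with E2F type matches. The contrast with Dnmt3b in these letters depends on that choice. E2F type letters occurred in 2.26% and NF-Y type letters in 37.4% of the 32851 promoters of the same length in the table. One E2F type match each was also present upstream or just downstream of the start sites of Ezh2, Hells and Suz12, and none in the listed promoters of Dnmt3a, Tet1, Tet2 and Tet3. Letters of the CHR type (TTTGAA, in 17.9% of promoters, not capitalised) occurred once each at Dnmt3b and Suz12 and in 1 of the 3 Dnmt1 promoters. These matches describe letters in a window and are not evidence of binding.

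Signal was tested on 6 of the 19 member probes, those above the negative control beads (detection p under 0.05) on at least 3 of the 22 arrays. They belong to Uhrf1, Dnmt3b, Dnmt1 and Ezh2, with 1 probe each, and to Suz12, with 2. Levels are log2 of the authors' normalized intensity. Each array detected 34.8% to 42.6% of its probes, and the lowest signal that counted as detected was 6.94 to 7.08 on the log2 scale. All 7 hepatocyte markers on the array were detected on all 22 arrays. Arrays lay on 4 slides, each holding 2 or 3 groups, with the 3 controls on 3 different slides.

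Uhrf1 was higher in every treated sample than in every control. Its responding probe (ILMN_2517041) read 7.08, 7.01 and 7.09 in the 3 controls, just at the detection limit (detection p 0.0118 to 0.0288). It read 8.25, 8.33 and 8.25 after 28 weeks of TCPOBOP. After 42 weeks the lowest, median and highest of 7 samples were 7.94, 8.49 and 9.12, and in DENA plus TCPOBOP the same values over 9 samples were 7.96, 8.36 and 9.23. The controls and the 3 treated groups did not overlap, whereas the treated groups overlapped one another widely. The share of all 22622 tested probes that separate from the 3 controls was not counted, so this separation has no scale here. The 28-week samples lay within a narrow band, while the 42-week and DENA plus TCPOBOP samples each spanned more than a log2 unit.

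Against controls Uhrf1 rose by 1.21 ± 0.33 (log2 change ± SE, n = 3 and 3; 2.32-fold) at 28 weeks of TCPOBOP, with a limma adjusted p of 0.0311 over all 22622 probes tested. The rise was 1.40 ± 0.28 (n = 7 and 3; 2.63-fold) at 42 weeks (limma adjusted p = 0.000587). In DENA plus TCPOBOP it was 1.47 ± 0.27 (n = 9 and 3; 2.77-fold, limma adjusted p = 0.000321). The 28-week call was the fragile one in the fit of all groups, although the size of the change was steady. It was lost when any 1 of the 6 arrays compared was left out (limma adjusted p 0.0779 to 0.101, change 1.19 to 1.23). It was also lost with no filter on dim probes (0.0568) and with median scaling (0.110). Over all 13 other settings the limma adjusted p ran from 3.48e-05, with only the groups compared fitted, to 0.110. The SD of Uhrf1 was 0.04 in controls and 0.05 at 28 weeks, against 0.47 at 42 weeks and 0.49 in DENA plus TCPOBOP. The fit of all groups shares 1 estimate of the spread. After background correction the same rises were 2.41, 2.63 and 2.72 on the log2 scale, so the size of the change depends on how the dim control signal is treated. Within slides the Uhrf1 differences from the control array were 1.25 and 1.16 at 28 weeks (slides 2 and 4), 1.35 at 42 weeks (slide 2) and 1.78 and 1.28 in DENA plus TCPOBOP (slides 3 and 4).

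The other Uhrf1 probe (ILMN_2497581) stayed at background, at 6.51 to 7.10 over all arrays with 2 of 22 detected. It did not show the rise, at a signal where a change may not be detectable, so the rise rests on 1 probe.

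Dnmt3b moved the other way. Its brighter probe (ILMN_1252310) read 9.08, 8.62 and 8.82 in controls and 7.84, 7.96 and 7.86 after 28 weeks of TCPOBOP. At 42 weeks the lowest, median and highest values were 7.51, 7.82 and 8.23, and in DENA plus TCPOBOP 7.39, 7.91 and 8.22. Every treated sample lay below every control, all 22 arrays detected the probe, and the 3 treated groups overlapped. As for Uhrf1, the share of all probes that separate from the controls was not counted.

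**Figure D1:**
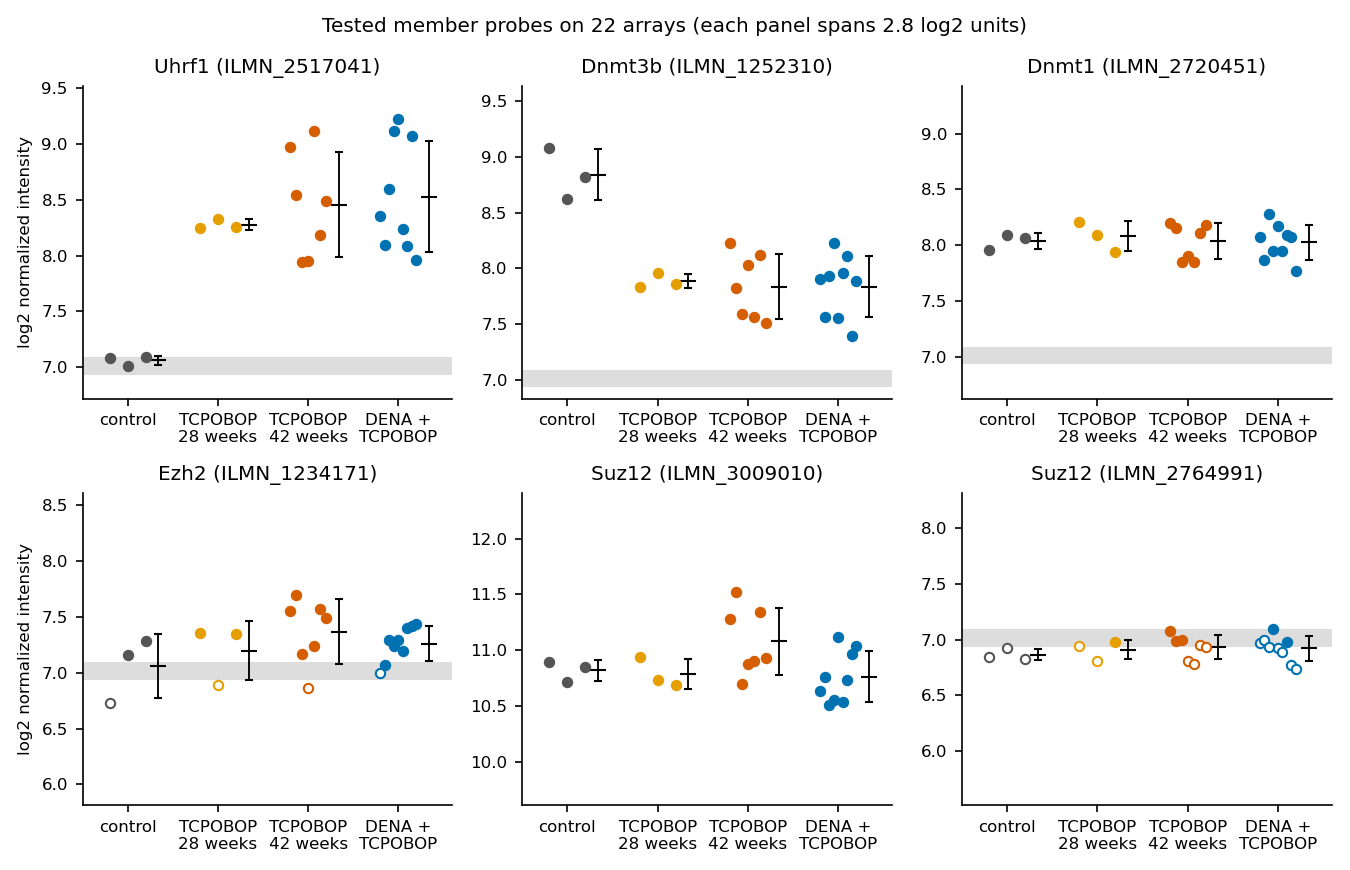
Log2 normalized intensity of the 6 tested member probes on each of the 22 arrays, by group (filled, detected at p under 0.05; open, not detected; black bars, mean ± SD; grey band, range of the lowest detected signal per array). Each panel spans 2.8 log2 units. Uhrf1 in treated samples (7.94 or more) lies above all controls, and Dnmt3b in treated samples (8.23 or less) lies below all controls. The other probes overlap between groups, and the share of all probes on the array that separate was not counted.

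Dnmt3b fell by 0.95 ± 0.21 (log2, n = 3 and 3; 1.93-fold lower, limma adjusted p = 0.00680) at 28 weeks. It fell by 1.00 ± 0.17 at 42 weeks (n = 7 and 3; 2.00-fold lower, limma adjusted p = 0.000170) and by 1.00 ± 0.17 in DENA plus TCPOBOP (n = 9 and 3; 2.00-fold lower, limma adjusted p = 0.000140). Background correction gave changes of -1.34, -1.45 and -1.45. The 28-week call was lost with median scaling (limma adjusted p = 0.0738; 0.000227 to 0.0738 over 13 settings) and kept with each of the 6 arrays left out in turn (0.0108 to 0.0481). Within slides the Dnmt3b difference was -1.11 and -0.95 at 28 weeks, -1.27 at 42 weeks and -0.70 and -1.02 in DENA plus TCPOBOP. The 42-week level differed from the 28-week level by -0.05 (95% interval -0.41 to 0.31). The other Dnmt3b probe (ILMN_3114377) was detected on 2 of 22 arrays, 1 of them a control at 7.30, and could not be tested. The Dnmt3b fall therefore also rests on 1 probe.

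Against the whole array, 1 member probe of 6 was called higher and 1 lower in each of the 3 comparisons with controls. Over all probes, 2.77% were called higher and 2.42% lower at 28 weeks of TCPOBOP. At 42 weeks the shares were 13.2% and 15.6%, and in DENA plus TCPOBOP 10.4% and 12.7%. At 42 weeks and with DENA, 1 probe of 6 in each direction is near that background and says nothing of the members as a set. The 3 comparisons share the same control arrays, so their matching directions are not separate observations.

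Dnmt1, the maintenance methyltransferase that UHRF1 recruits, showed no detectable change. Its probe read 7.96, 8.09 and 8.07 in controls and 8.21, 8.09 and 7.94 at 28 weeks. The lowest, median and highest were 7.85, 8.11 and 8.20 at 42 weeks, and 7.77, 8.07 and 8.28 with DENA before TCPOBOP. The groups overlapped fully and every array detected the probe. The change from controls was 0.04 at 28 weeks (95% interval -0.22 to 0.30), 0.00 at 42 weeks (-0.22 to 0.22) and -0.01 in DENA plus TCPOBOP (-0.23 to 0.20), with limma adjusted p of 0.931, 0.983 and 0.943. On the same scale, these intervals lie below the lower ends of the Uhrf1 intervals (0.54, 0.82 and 0.91).

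**Figure D2:**
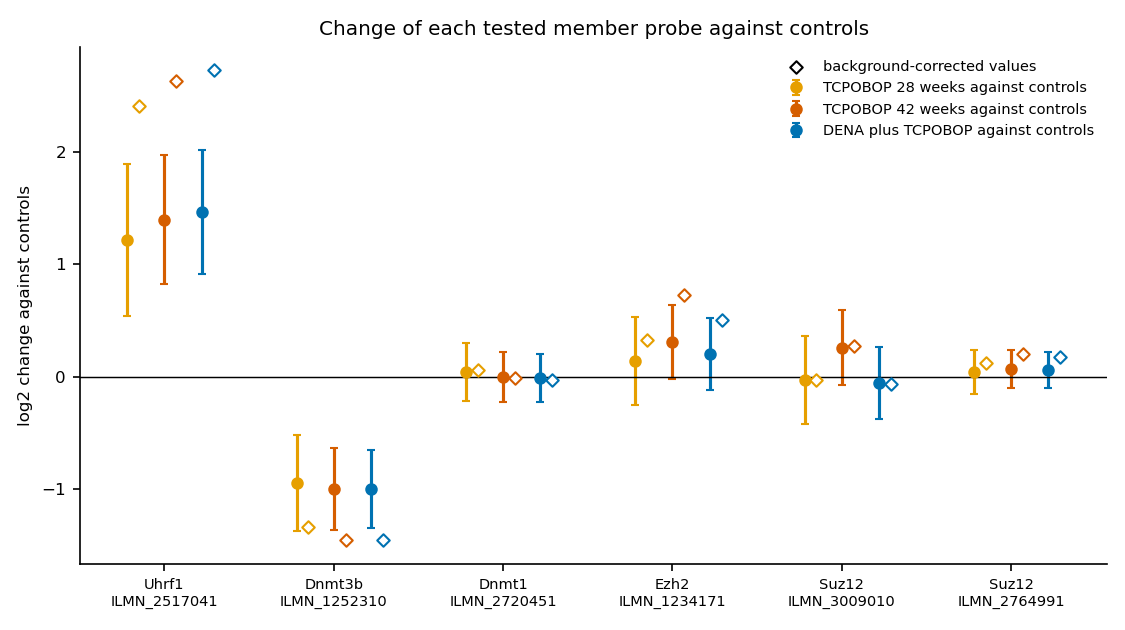
Log2 change of each tested member probe against controls in the 3 treated groups (circles, limma estimate with 95% interval; diamonds, estimate from background-corrected values). Uhrf1 is above 0 at 1.21 to 1.47, Dnmt3b below 0 in all 3, the intervals of the other 4 probes include 0, and background correction widens the Uhrf1 and Dnmt3b changes.

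Of the Polycomb subunits, Suz12 was bright and Ezh2 dim. The bright Suz12 probe (ILMN_3009010) read 10.89, 10.72 and 10.85 in controls and 10.94, 10.73 and 10.69 at 28 weeks. At 42 weeks its lowest, median and highest values were 10.69, 10.93 and 11.52, and in DENA plus TCPOBOP 10.51, 10.73 and 11.12. All 4 groups overlapped, with 3 samples at 42 weeks (11.28, 11.35 and 11.52) above every sample of the other groups. The changes from controls were -0.03, 0.26 and -0.06, none past the threshold (limma adjusted p 0.967, 0.243 and 0.839). The second Suz12 probe (ILMN_2764991) was detected on 0 of 3, 1 of 3, 3 of 7 and 2 of 9 arrays of controls, 28 weeks, 42 weeks and DENA plus TCPOBOP, and its changes were 0.04 to 0.07.

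The Ezh2 probe (ILMN_1234171) was detected on 2 of 3 controls, 2 of 3 samples at 28 weeks, 6 of 7 at 42 weeks and 8 of 9 in DENA plus TCPOBOP. It read 6.73, 7.16 and 7.28 in controls and 7.35, 6.89 and 7.35 at 28 weeks. The lowest, median and highest were 6.86, 7.49 and 7.70 at 42 weeks, and 6.99, 7.29 and 7.44 with DENA before TCPOBOP. The groups overlapped at the dim end, and 4 samples at 42 weeks exceeded all others. The difference from controls at 42 weeks was 0.31 ± 0.16 (limma adjusted p = 0.156). It passed the threshold with slide as a fixed block (0.52, limma adjusted p = 0.0166) and without replicate 4 of the 42-week group (0.39, limma adjusted p = 0.0436), while without control replicate 1 it was 0.15 (limma adjusted p = 0.602). Over the 13 other settings the limma adjusted p ran from 0.0166 to 0.371. The differences at 28 weeks (0.14 ± 0.19) and in DENA plus TCPOBOP (0.20 ± 0.15) did not pass in any setting.

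The TET enzymes, Dnmt3a and Hells gave no testable signal on this array. Over the 13 untested probes, 9 of 286 probe-by-array readings (3.15%) passed the detection threshold. The filter kept probes detected on at least 3 arrays, so a low share among the rest was fixed in advance. Tet1 was detected on none of 22 arrays (1 probe, 6.50 to 6.93), Tet3 in 1 of 66 readings (3 probes, 6.57 to 7.10), Dnmt3a in 3 of 66 (3 probes, 6.50 to 7.10) and Hells in 0 of 44 (2 probes, 6.52 to 7.00). The 2 further Ezh2 probes were detected in 1 of 44 readings. None of the 13 was called in any comparison when all 45281 probes were fitted. A change in these RNAs was not detectable at this signal.

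**Figure D3:**
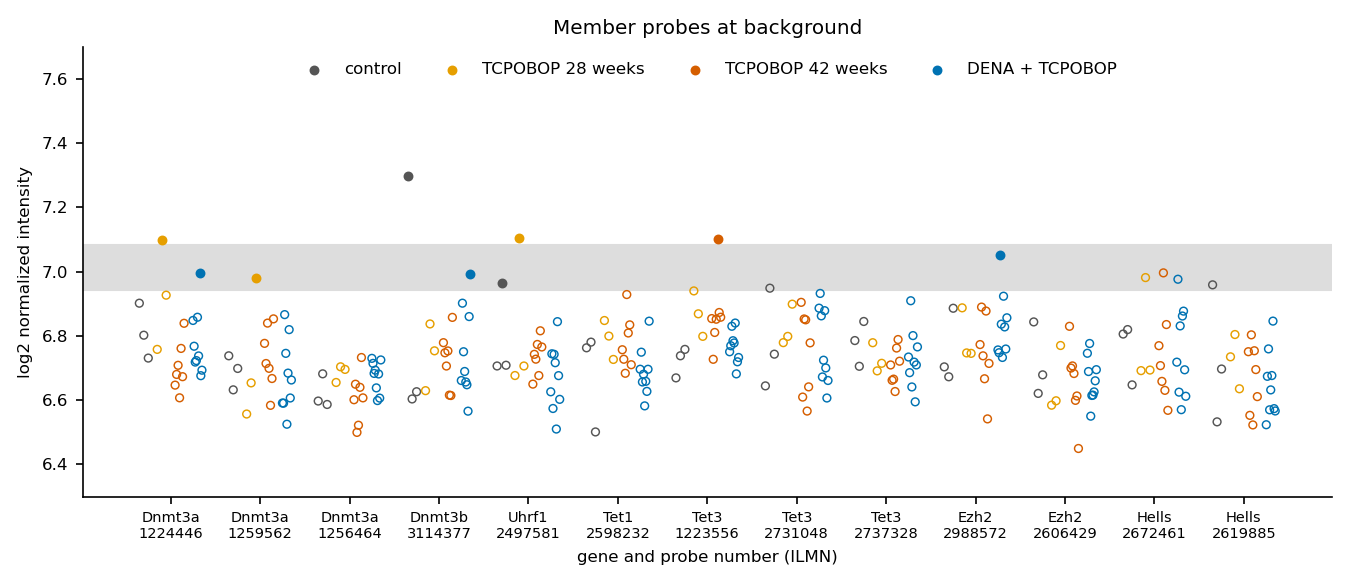
Log2 normalized intensity of the 13 member probes that were not tested, on each of 22 arrays (filled, detected at p under 0.05; open, not detected; colours, groups; grey band, range of the lowest detected signal per array). Of 286 points, 9 are filled, and the levels lie between 6.45 (a sample at 42 weeks) and 7.30 (a control).

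The treated groups were compared with one another, by weeks of TCPOBOP and by DENA. The 42-week and DENA plus TCPOBOP groups differ in both, and their arrays share only slide 1. Mice with longer exposure may also have been older, and age and exposure cannot be told apart here. No member probe was called, and 1 of the 18 member tests had an unadjusted p under 0.05 (Suz12, below). Over all probes, limma called 5.22% higher and 6.31% lower at 42 than at 28 weeks of TCPOBOP, 4.96% higher and 5.85% lower in DENA plus TCPOBOP than at 28 weeks, and 1.07% higher and 0.973% lower in DENA plus TCPOBOP than at 42 weeks. The direction of those array-wide calls depends on scaling. Higher calls made up 45.3%, 45.9% and 52.3% of all calls in these comparisons, against 20.5%, 26.3% and 0% (of a single call) with median scaling. Under either scaling the median change over all probes lay between -0.05 and 0.03 in the 6 comparisons.

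For Uhrf1 the difference was 0.18 between 42 and 28 weeks (95% interval -0.39 to 0.75), 0.25 between DENA plus TCPOBOP and 28 weeks (-0.30 to 0.81) and 0.07 between DENA plus TCPOBOP and 42 weeks (-0.35 to 0.49). Dnmt3b differed by -0.05 between DENA plus TCPOBOP and 28 weeks (-0.40 to 0.30) and by 0.00 between DENA plus TCPOBOP and 42 weeks (-0.26 to 0.26). The largest member difference was in Suz12, which was lower by -0.32 ± 0.12 in DENA plus TCPOBOP than at 42 weeks, with an unadjusted limma p of 0.0124 and an adjusted p of 0.136. With 1 array left out in turn that adjusted p was 0.0531 to 0.259.

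The proliferative state of the same arrays was read from a list of DNA replication and cell cycle genes that holds none of the members. That list and those below were chosen with earlier results of these data known, so their shares are descriptions only. Of 38 listed genes 30 were tested, and 6 rose and 0 fell at 28 weeks, 17 rose and 1 fell at 42 weeks, and 13 rose and 0 fell with DENA, each against controls. Over all genes, by the brightest probe of each, 3.45%, 14.6% and 11.6% were higher and 2.59%, 17.3% and 14.7% lower. Cdc20, which activates the anaphase-promoting ubiquitin ligase, rose by 1.74, 2.40 and 1.59 on the log2 scale. Rrm2, a subunit of ribonucleotide reductase, rose by 1.38 at 28 weeks and 1.55 at 42 weeks, and Mcm6, of the replicative helicase, by 1.25 at 28 weeks and 1.19 in DENA plus TCPOBOP. The list's mean log2 level was 7.44 to 7.46 in controls, 7.91 to 8.07 at 28 weeks, 7.67 to 8.46 at 42 weeks, and 7.65 to 8.55 with DENA before TCPOBOP. No treated sample overlapped the controls.

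Uhrf1 was then set against that level within the treated groups. In DENA plus TCPOBOP (n = 9) Pearson r was 0.77 (exact two-sided permutation p = 0.00255; 0.0255 after Benjamini-Hochberg adjustment over 10 relations) and Spearman rho 0.80 (exact permutation p = 0.0138, adjusted 0.120). With background-corrected values r was 0.755 and its exact permutation p missed the threshold after adjustment (0.0537). Without the 2 samples farthest from the median level r was 0.72 (n = 7). At 42 weeks (n = 7) r was 0.72 (exact permutation p = 0.0575, adjusted 0.192) and rho 0.79 (exact permutation p = 0.0480, adjusted 0.120). Without the 2 farthest samples r at 42 weeks was 0.89 (n = 5). The relation thus passed the adjusted threshold for Pearson's r in DENA plus TCPOBOP and in no other case, and slides held at most 4 arrays of a group, too few for a value within slides. Dnmt3b showed r of -0.42 in DENA plus TCPOBOP and -0.06 at 42 weeks, and Dnmt1 0.31 and 0.45, with exact permutation p of 0.266 to 0.925 for these 4 relations. Ezh2 at 42 weeks had r = 0.82 (exact permutation p = 0.0262, adjusted 0.131), and 0.20 without the 2 farthest samples (n = 5). Leaving out the farthest samples also narrows the range of the cell cycle level, so a lower r there cannot be read alone. Ezh2 in DENA plus TCPOBOP went the other way, from r = 0.22 over 9 samples (exact permutation p = 0.583) to 0.80 without the 2 farthest. The value for Ezh2 thus changed in each group when 2 samples were left out.

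**Figure D4:**
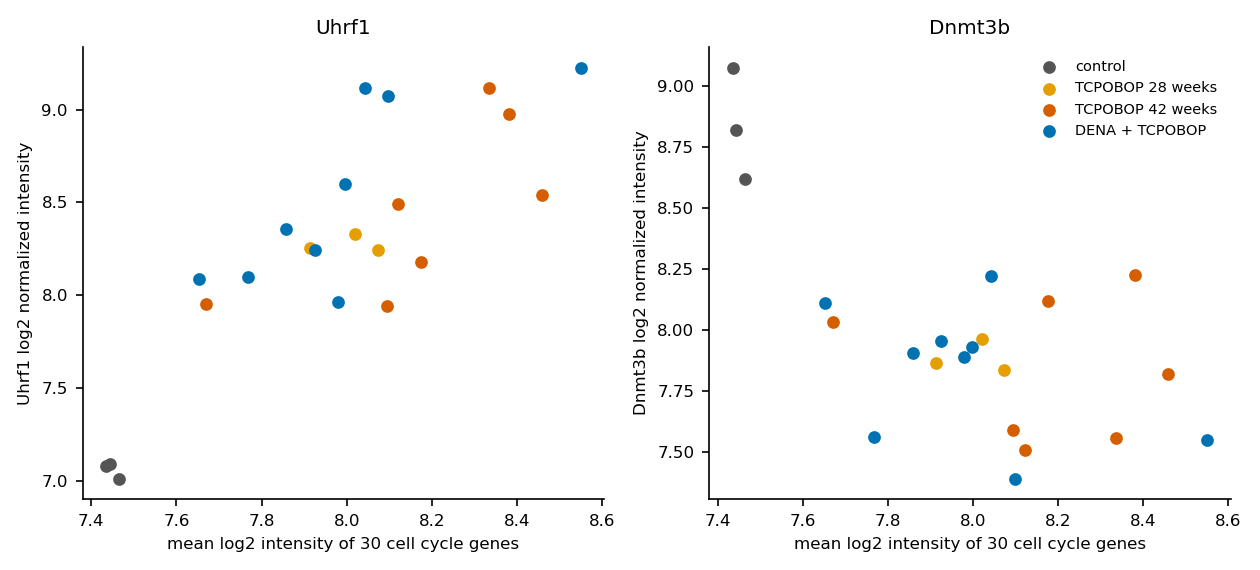
Log2 intensity of Uhrf1 (left) and Dnmt3b (right) against the mean log2 intensity of 30 cell cycle genes on each of 22 arrays, coloured by group. Uhrf1 is higher on arrays with a higher cell cycle level within DENA plus TCPOBOP (r = 0.77), whereas Dnmt3b within that group has r = -0.42; the controls stand apart in both panels.

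Genes whose pattern over the 22 arrays was most like that of a member were ranked by Pearson's r, a description in which the points share group differences, slides and normalization. For Uhrf1 they were Gstm1, a glutathione transferase (r = 0.87, and 0.75 after group means were removed), Tax1bp3 (0.86 and 0.69) and D17H6S56E-5 (0.85 and 0.61). For Dnmt3b they were Tmie (0.87 and 0.75), Zbtb5 (0.86 and 0.57) and Susd1 (0.86 and 0.52). These genes were picked as the highest over all genes, so their r is high by selection and gives no scale for pairs of members. Between members, with group means removed, r was -0.16 for Uhrf1 and Dnmt3b and 0.36 for Uhrf1 and Dnmt1. The highest value of a member pair was 0.55, for Ezh2 and Suz12.

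Other genes of the same pathways were called in numbers mostly near or below those over all genes. Of 14 tested cofactors, readers and demethylation genes none was called at 28 weeks, 3 rose and 4 fell at 42 weeks, and 1 rose and 2 fell with DENA. These are shares of 21.4% higher and 28.6% lower at 42 weeks, somewhat above the 14.6% and 17.3% of all genes, and of 7.14% and 14.3% with DENA, at or below the 11.6% and 14.7% of all genes. At 42 weeks Tdg, the glycosylase that removes TET products, rose by 0.68 and Apex1, the endonuclease acting after it, by 0.65. Zbtb33, a reader of methylated DNA, fell by 0.69. Cdca7, the partner of HELLS, fell by 0.39 in DENA plus TCPOBOP. The list's median change was -0.21, -0.02 and -0.07 in the 3 comparisons, against -0.02, -0.01 and -0.01 over all genes.

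Of 23 tested genes of Polycomb complexes 1 and 2, 2 fell at 28 weeks, 3 rose and 3 fell at 42 weeks and 2 fell in DENA plus TCPOBOP. The shares at 42 weeks (3 of 23 in each direction) and with DENA (8.70% lower) were below those over all genes, while at 28 weeks 8.70% were lower, against 2.59% of all genes. Cbx8, a chromodomain subunit of complex 1, changed by -0.61, -0.54 and -0.55 in the 3 comparisons (limma adjusted p 0.00984, 0.00124 and 0.00113). Rbbp7, a histone-binding subunit of complex 2, rose by 1.19 at 42 weeks, with all 5 of its tested probes changed in the same direction. Of 8 genes of histone H3 lysine 9 methylation and heterochromatin, 1 rose and 2 fell at 42 weeks and 1 fell in DENA plus TCPOBOP; Cbx5, the heterochromatin protein HP1 alpha, changed by -0.57 and -0.48. Of 15 histone deacetylase and NuRD genes, 0 rose in the 3 comparisons, and 3 fell at 42 weeks and 1 in DENA plus TCPOBOP; Mta2, a NuRD subunit, changed by -0.66 and -0.43. With 1 to 3 genes called in a direction, the shares of these last 2 lists (at most 25.0% lower at 42 weeks and 12.5% with DENA) are near those over all genes and say nothing of the lists as sets.

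Enzymes that supply and dispose of methyl groups moved in 1 direction where they were called. Of 7 tested, 1 fell at 28 weeks, 4 at 42 weeks and 3 with DENA, and 0 rose. These are 14.3%, 57.1% and 42.9% of the list, against 2.59%, 17.3% and 14.7% of all genes called lower. The share at 28 weeks rests on 1 gene, and the list was chosen with earlier results of these data known. Bhmt, which remethylates homocysteine, fell from a mean log2 level of 12.77 in controls to 7.26 at 42 weeks and 8.05 in DENA plus TCPOBOP (changes -5.51 and -4.72, limma adjusted p 2.4e-06 and 1.25e-05). Gnmt, which consumes the methyl donor S-adenosylmethionine, changed by -2.98 and -2.30. Nnmt, another consumer of it, changed by -2.50, -2.88 and -2.50 in the 3 comparisons. Ahcy, which clears the product S-adenosylhomocysteine, fell by 0.84 at 42 weeks. At 28 weeks Bhmt (mean 10.48) and Gnmt (14.28, against 15.14 in controls) were lower than in controls but not called. Both were lower at 42 than at 28 weeks, by -3.22 and -2.12 (limma adjusted p 0.00328 and 0.00412). The list's median change was -0.36, -0.84 and -0.35, against -0.02, -0.01 and -0.01 over all genes.

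**Figure D5:**
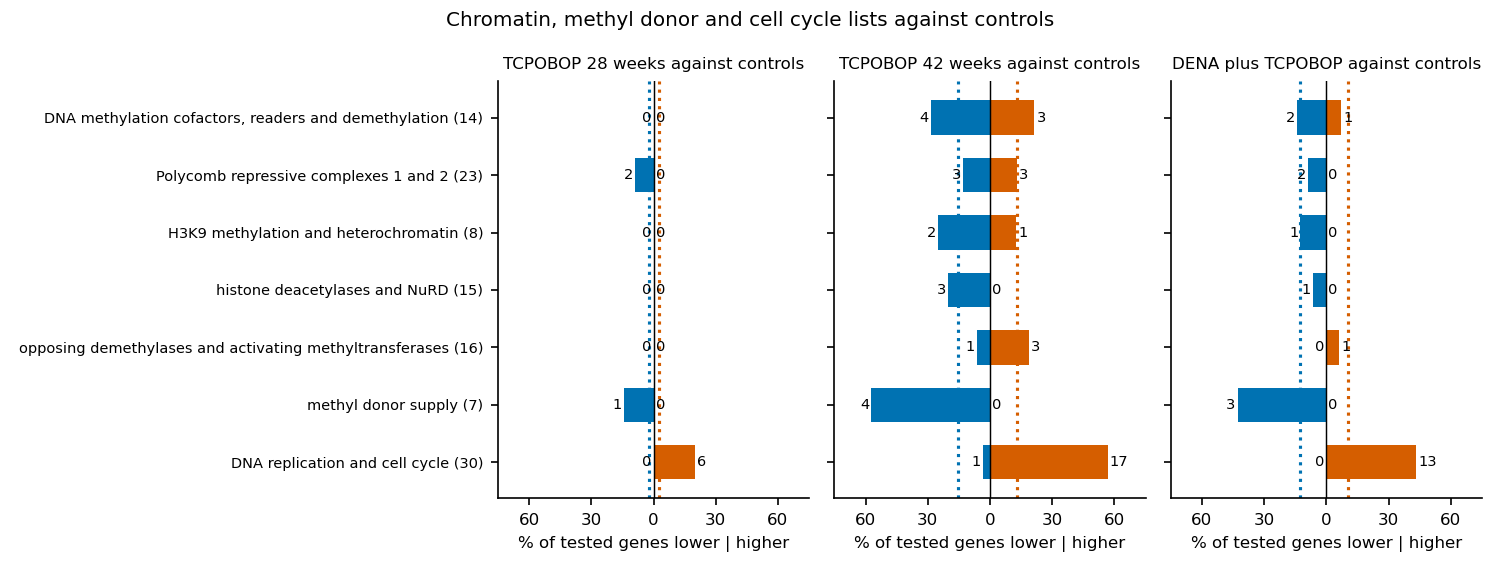
Percent of the tested genes of each list called lower (blue, to the left) or higher (orange, to the right) against controls by limma at an adjusted p under 0.05, with the number of genes beside each bar and the number tested in brackets; dotted lines mark the percent of all probes called. The cell cycle list lies to the right (17 of 30 higher at 42 weeks) and the methyl donor list to the left (4 of 7 lower at 42 weeks). All lists were chosen with earlier results of these data known.

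Markers of liver cell types also moved. For scale, 3.45% of all genes were called higher and 2.59% lower at 28 weeks against controls. At 42 weeks the shares were 14.6% and 17.3%, and in DENA plus TCPOBOP 11.6% and 14.7%. Of 7 hepatocyte markers, Alb (albumin) changed by -1.19 and Fgb (fibrinogen beta chain) by -1.74 at 42 weeks, and Alb by -0.94 in DENA plus TCPOBOP, and no other call was made against controls. The list's mean log2 level was 13.42 to 13.65 in controls, above every sample at 28 weeks (13.23 to 13.34) and at 42 weeks (13.07 to 13.25), and overlapped the samples of DENA plus TCPOBOP (13.01 to 13.51). Of 3 tested red cell precursor markers, Hba-a1, an alpha globin, changed by -1.44 at 42 weeks. Of 8 tested Kupffer cell and macrophage markers 3 rose at 28 weeks, 1 rose and 1 fell at 42 weeks and 1 rose in DENA plus TCPOBOP. C1qb, a complement subunit made by macrophages, rose in all 3 comparisons, by 1.31, 1.08 and 0.97 (limma adjusted p 0.0368, 0.0106 and 0.0207), and Clec4f, a Kupffer cell lectin, changed by -1.12 at 42 weeks. The macrophage list's mean log2 level was 9.14 to 9.43 at 28 weeks against 8.30 to 8.47 in controls. At 42 weeks (7.73 to 8.99) and in DENA plus TCPOBOP (8.03 to 9.03) it overlapped the controls. Of 8 endothelial markers 5 fell at 42 weeks and 4 with DENA, with mean levels of 7.34 to 8.38 and 7.55 to 8.64 against 8.86 to 9.08 in controls, while at 28 weeks 0 were called and the level was 8.76 to 9.05. Of 9 stellate cell and fibroblast markers 1 rose and 4 fell at 42 weeks and 5 fell in DENA plus TCPOBOP, with levels of 7.85 to 8.68 and 7.52 to 8.77 against 8.85 to 9.00 in controls and 8.67 to 8.74 at 28 weeks, where 0 were called. None of 6 tested lymphocyte and 2 tested bile duct markers was called against controls. Cd5l, Cd8a, Ms4a1 and Epcam were detected on no array. The part of these cells in the Uhrf1 and Dnmt3b differences was not tested.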

How the data were processed

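Liver RNA of 22 samples was hybridised to Illumina mouse bead arrays, read with BeadStudio 3.0.19.0 per the submitters' processing notes. The authors deposited normalized and non-normalized intensity tables on a linear scale, each with a deposited detection p-value that places every probe's signal among the array's negative controls. The normalization method is not given in the sources used here. Groups, replicate numbers and slides came from the labels.

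Values were log2 of the normalized intensity. A probe was kept where 3 or more arrays had a detection p under 0.05 (22622 of 45281), without averaging probes of a gene. The platform annotation names 1 gene for 34885 probes and several for 18, and leaves 10378 unnamed. The 4 groups were fitted together with limma 3.58.1 (lmFit, eBayes; R 4.3.3), with 6 contrasts, Benjamini-Hochberg adjustment over all kept probes and a threshold of 0.05. The limma script was tested on simulated data. Lists are described by the brightest kept probe of each gene, with no test of the list. Up to 4 called genes per list and comparison with the largest change could be named, and the text names a part of them. Probes of 1 gene can disagree.

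Correlations with the cell cycle level used exact permutation in both groups (scipy 1.17.1), although random resampling had been planned for the larger one. Promoters came from RefSeq GRCm38.p6, matched by symbol, with all 10 members found. Other software was Python 3.11.15, pandas 2.3.3, numpy 2.4.6 and matplotlib 3.10.9. Alternatives changed background correction, normalization, the filter, the probe rule, slide and replicate blocks, array weights, moderation and the samples fitted, and left out each array. The number of arrays limits the precision. The members and lists were chosen with earlier results of these data known.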

Additional observations from a re-analysis of the deposited data

How the results depend on the processing

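Member calls against controls kept their side of the threshold at 42 weeks and in DENA plus TCPOBOP for Uhrf1 and Dnmt3b in all 13 other settings and with each array left out. At 28 weeks, 2 member probes were called, against 0 with median scaling, 1 with no filter and 1 with any array left out. With arrays left out, the count was 2 to 3 at 42 weeks, the third being Ezh2. No member estimate that was called changed sign. The cause of these losses was not tested.

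Array-wide counts moved more. With median scaling they were 538 (of 1175 in the chosen setting) at 28 weeks, 4228 (6513) at 42 weeks and 3171 (5214) in DENA plus TCPOBOP against controls, and 1127 (2608), 1064 (2447) and 1 (461) for 42 against 28 weeks, DENA plus TCPOBOP against 28 weeks and against 42 weeks. With the brightest probe of each gene, which tests fewer features, they were 761, 3870, 3222, 1731, 1561 and 217 in that order. Array weights gave 3053 at 28 weeks against controls, 4284 for 42 against 28 weeks and 4495 for DENA plus TCPOBOP against 28 weeks, and fitting only the groups compared gave 3020 at 28 weeks against controls. For DENA plus TCPOBOP against 42 weeks the count was 237 with no filter, 0 with slide as a fixed block, 209 with slide as a random block and 203 with only the groups compared, so its percentages depend on the slide term. With 1 array left out the 6 counts, in the order given, were 676 to 767, 4497 to 6784, 3584 to 5430, 1174 to 2934, 1005 to 2929 and 176 to 1317, the last reached without replicate 3 of the 42-week group.

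The replicate block changed no member call. Same-numbered arrays of different groups had deviations correlated at -0.22 to 0.18 (median 0.03), against a median of 0.00 for other numbers. These values show no pairing by number but cannot exclude it. For arrays of different groups on the same slide the median was 0.09, against -0.01 on different slides. The replicate block gave 1098, 5620, 4272, 1965, 1665 and 611 calls. For Uhrf1 against the cell cycle level in DENA plus TCPOBOP, r was 0.755 with background-corrected values (exact permutation adjusted p = 0.0537) and 0.724 without 2 samples (adjusted 0.278, over 7 samples). Signal near background limits Uhrf1 in controls, Ezh2 and the 13 untested probes.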

Other observations

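Histone demethylases and activating methyltransferases were also measured, and not all of them oppose silencing. Of 16 tested demethylases and activating methyltransferases, 0 were called at 28 weeks of TCPOBOP, 3 rose and 1 fell at 42 weeks and 1 rose in DENA plus TCPOBOP, against controls, counts too small to set the list apart from all genes. Dot1l, a histone H3 methyltransferase, rose by 0.74 at 42 weeks and by 0.57 in DENA plus TCPOBOP, from a mean log2 level of 7.23 in controls. Kdm4b, a demethylase of H3 lysine 9, rose by 0.68 at 42 weeks on 2 probes of the same sign. Kdm5b, another demethylase, rose by 0.58 at 42 weeks, with 2 of its 3 tested probes of the same sign. Kmt2c, a methyltransferase of H3 lysine 4, fell by 0.60. Cbx3, a heterochromatin protein, was lower by -1.01 in DENA plus TCPOBOP than at 42 weeks (limma adjusted p = 0.0225), and the other tested Cbx3 probe had the opposite sign. With slide as a fixed block, limma called 0 probes in that comparison, so the Cbx3 call was lost.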
